A study of Drosophila melanogaster with 159 samples.

Results

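The genes described here encode 3 families of enzymes that insects use to change and clear small molecules, and their RNA levels were read from cDNA arrays of Drosophila melanogaster, the fruit fly, sampled from egg to aged adult. Members were the genes with a probe of a single gene name whose current symbol starts with Cyp and a number, with GstD, GstE, GstO, GstS, GstT or GstZ, or with Ugt, and for each gene the probe with the most values was read. The rule found 41 of the 3045 genes with such a probe. Of these, 39 are the enzymes meant: 28 cytochrome P450 genes (14 of the CYP3 clan, 11 of the CYP4 clan, 1 of the CYP2 clan and 2 mitochondrial), 6 glutathione S-transferase (GST) genes and 5 UDP-glycosyltransferase (UGT) genes. The symbols Cyp1 and Cyp40 also fit the rule, but both genes encode cyclophilins, which are protein-folding isomerases, and they were left out of every count below.

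Cytochrome P450s are heme enzymes that insert an oxygen atom into a substrate. GSTs attach glutathione to reactive compounds, and UGTs attach a sugar, so that the product dissolves in water and can be excreted. In insects the fat body, the midgut and the Malpighian tubules are the main sites of this chemistry, while other P450s of the same clans make or break down hormones, fatty acids and cuticular hydrocarbons.

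Every array compared the poly(A)+ RNA of a sample with reference RNA, and levels are given as the log2 ratio of sample over reference with the median of each array set to 0. Tudor adults formed 4 groups of 2 arrays (males and females at 0-24 h and at 5 d after eclosion), and their titles name tudor, a gene needed for germ cells to form in the offspring of mutant mothers, whereas their strain label reads Canton S like that of all other samples. From the titles alone it cannot be told which generation carried the tudor mutation. Wild-type Canton S adults filled 32 arrays (both sexes at 0-24 h and at 3, 5, 10, 15, 20, 25 and 30 d), and metamorphosis 35 arrays (18 times timed from the white prepupa). Larvae filled 24 arrays, from 24 h to the last larval time, and 4 of these held males or females alone. The titles do not say from which event the larval hours were counted. Embryos filled 60 arrays (30 overlapping collections of 1 h). All samples were whole animals, so more cells of a type and more RNA per cell cannot be told apart.

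Arrays carried 6722 to 8546 values. They came in 2 slide sets, A with 57 arrays and B with 102, and every test included the set. Replicate 1 of embryo 2-3 h, embryo 4-5 h, metamorphosis 12 h and metamorphosis 16 h stood apart. Their highest correlation with an array of another group was 0.35, where these 4 were not compared with each other. For each of the other arrays the highest correlation was at least 0.67. Replicates at 20 to 80 h of metamorphosis also differed, with a median correlation of 0.41 over 9 times. Nothing in the labels says that replicates were separate collections, so p-values measure the spread between arrays. Of the 39 enzyme genes, Cyp4d2 and Cyp6d5 had values almost only in slide set A (58 and 48 arrays), and Cyp6a13, Cyp4g1 and GstE12 had 73, 115 and 116 values. A test required values on 80% or more of the arrays compared, so between 30 and 35 of the 39 were tested in any comparison.

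The heat map of group means shows that most of the enzyme genes had a low point in the embryo and that their high points were spread over the life cycle. Among the 36 genes with 2 values in at least 30 wild-type groups, the lowest group mean fell in the embryo for 31, in metamorphosis for 4, in the adult for 1 and in the larva for 0. The highest group mean fell in the embryo for 14, in the larva for 10, in the adult for 7 and in metamorphosis for 5. The embryo supplies 30 of the 73 groups, and of 7290 probes measured as widely 47.5% had their lowest group mean there and 46.1% their highest. Levels are read as sample over reference, which scan comments state for 13 arrays, and with the sign turned the highest and lowest groups would change places. The widest range belonged to Cyp4g1, the enzyme that makes cuticular hydrocarbons in the oenocytes, whose group mean log2 ratio ran between -5.71 in embryos of 3.5-4.5 h and 4.73 in adult males of 10 d.

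**Figure D1:**
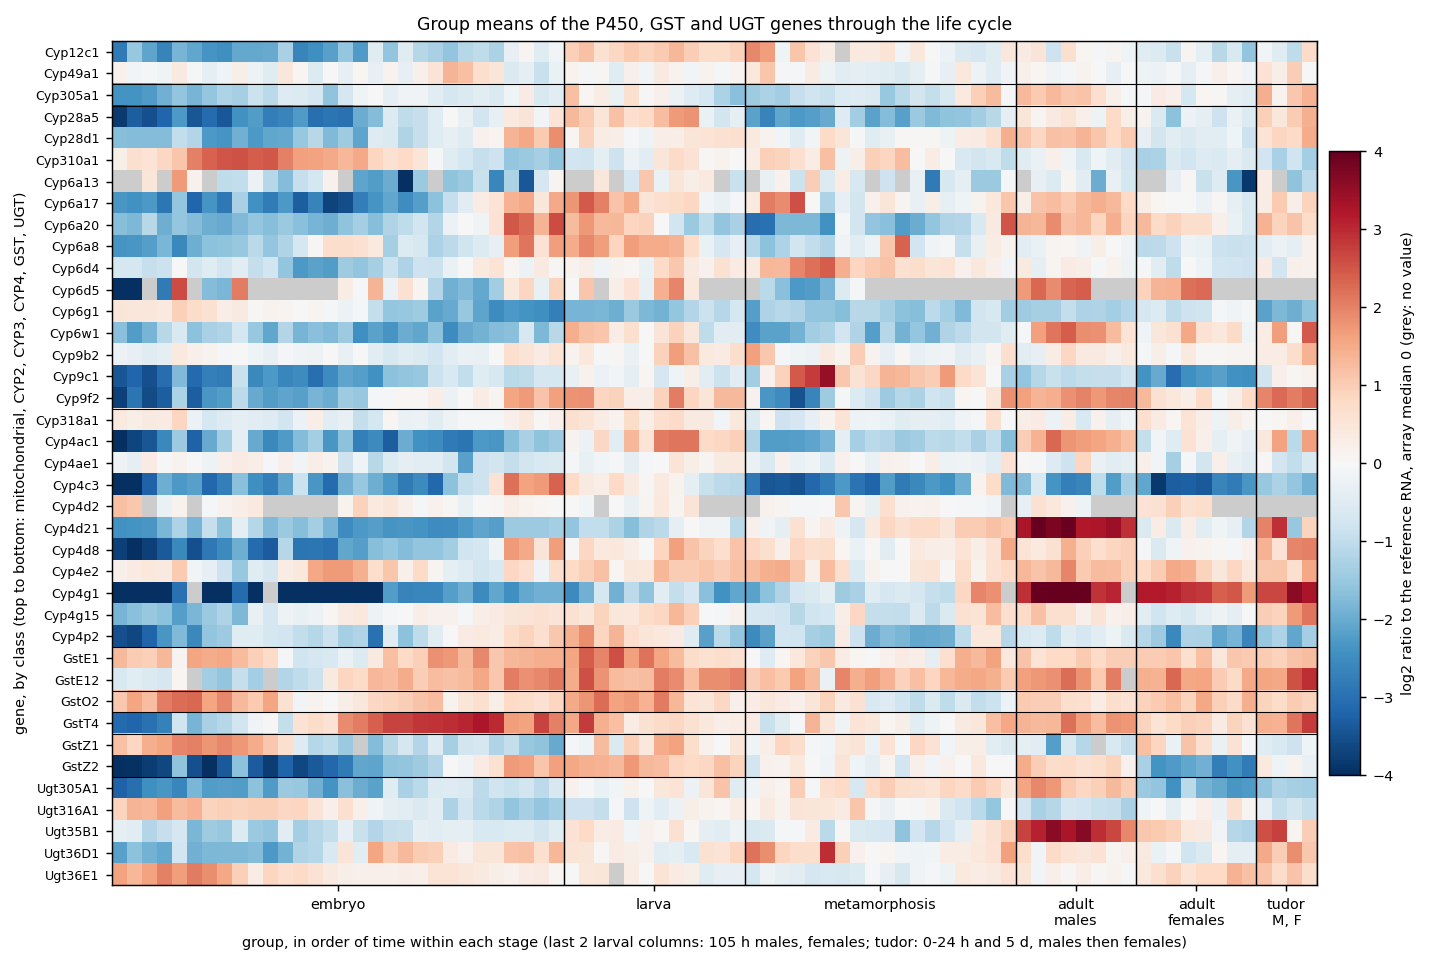
Mean log2 ratio over reference of each of the 39 enzyme genes (rows) in each of the 80 groups (columns, in life-cycle order), with colours clipped at -4 and 4 and grey where no array had a value. For 31 of 36 well-measured genes the lowest group mean falls in one of the embryonic columns, early for some and late for others, as with Cyp310a1 and Cyp6g1.

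A gene was assigned to a stage where its stage mean exceeded each of the other 3 stage means by at least 1 on the log2 scale, with adjusted p under 0.05 in each contrast (limma, Benjamini-Hochberg). Of 30 genes tested, 8 were assigned, against 9.98% of all tested probes. Larva took 5 of the 30 (2.54% of all probes), adult 2 (2.72%), metamorphosis 1 (1.72%) and embryo 0 (3.00%), and 22 were assigned to none. Over all stages the larval mean exceeded the embryonic mean for 24 of the 30 genes and was below it for 3, while 43.1% of all probes were higher in the larva and 37.5% lower.

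The 5 larval genes were Cyp28a5, Cyp6a8, Cyp4c3 and Cyp4p2, which are P450s of the CYP3 and CYP4 clans, and GstZ2, a zeta-class GST (the class of maleylacetoacetate isomerase, an enzyme of tyrosine breakdown). In the windows embryo 0-2, 4-6.5 and 20-24 h, early larva (24-43 h), late larva (the 3 last times, from 84 h on), metamorphosis 0-6, 20-48 and 72-96 h, adult males and adult females, Cyp28a5 had median log2 ratios of -3.52, -2.55, 0.36, 0.95, 1.68, -2.31, -1.76, -1.12, 0.37 and -0.59. In the same windows Cyp4c3 had medians of -4.06, -2.28, 1.99, 0.40, -0.12, -3.27, -2.53, 0.14, -1.95 and -3.03. From late embryo to late larva the medians of Cyp28a5 rose and those of Cyp4c3 fell, and both genes were low at the start of metamorphosis. The highest single group of Cyp4c3 was embryo 23-24 h (mean 2.36), although its stage mean was highest in the larva.

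GstZ2 had medians of -4.0, -3.36, 1.64, 1.46, 0.80, 0.21, -0.01, 0.19, 0.77 and -2.34 in the same 10 windows, so adult females returned towards the level of early embryos and males did not. Cyp6a8, a P450 that can be induced by foreign compounds, had medians of -2.37, -1.38, 1.66, 1.71, 0.72, -1.17, -0.08, 0.10, -0.07 and -0.77. Its highest single group was metamorphosis 30 h (mean 2.36), so a larval stage mean did not imply a larval maximum. Cyp4p2 had medians of -3.64, -0.58, 0.86, 1.42, -0.48, -1.01, -1.90, -0.31, -0.60 and -1.77.

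The gene assigned to metamorphosis was Cyp9c1, a P450 of the CYP3 clan, with medians of -3.30, -2.39, -0.85, -0.15, -0.18, 0.62, 0.99, -0.10, -0.84 and -2.36 in the 10 windows. The adult genes were Cyp4d21, known as a sex-specific enzyme of the fly head that bears on male courtship, and Ugt35B1, a glycosyltransferase. Cyp4d21 had medians of -2.40, -1.33, -1.42, -1.17, -0.20, -0.01, 0.70, 1.11, 3.50 and -0.38, and Ugt35B1 of -0.84, -1.35, -0.49, 0.57, 0.13, -0.06, -0.76, 0.72, 2.84 and 0.16. For both, the adult males lay above every other window. Adult females lay below all 3 metamorphosis windows for Cyp4d21 and within their range for Ugt35B1.

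**Figure D2:**
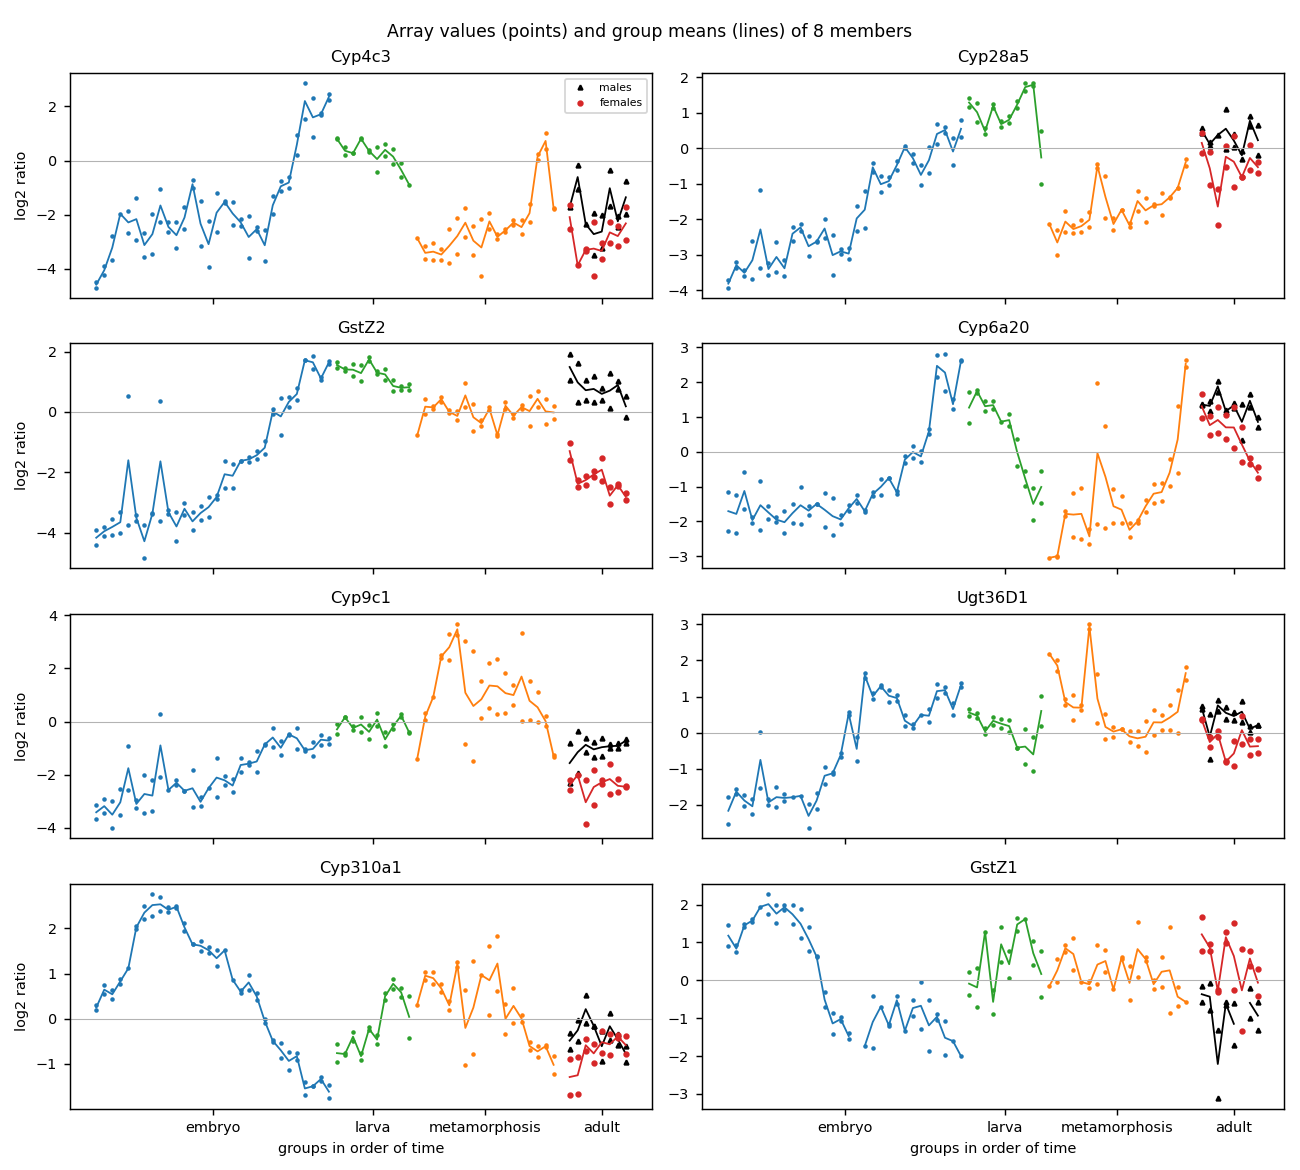
Log2 ratio over reference of 8 enzyme genes along the life cycle, with points for single arrays and lines through group means (adult males as black triangles, adult females in red). Cyp4c3, Cyp28a5, GstZ2 and Cyp6a20 climb late in the embryo, Cyp9c1 and Ugt36D1 have their highest group means at metamorphosis 10 h (3.47 and 2.94), and Cyp310a1 and GstZ1 are high early in the embryo.

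At 4-6.5 h of embryogenesis, by when the embryo has begun to replace RNA laid down by the mother, 14 of 33 tested enzyme genes rose and 3 fell relative to 0-2 h. Among all probes 32.2% rose and 20.7% fell, and the median difference was 0.37 for the enzyme genes and 0.19 for all probes. Of 9 tested CYP4 clan P450s 6 rose and 1 fell, and of 11 tested CYP3 clan P450s 5 rose and 1 fell. Cyp4p2 had log2 ratios of -0.97, -0.58 and -0.01 (lowest, median and highest of 8 arrays) at 4-6.5 h, against -3.80, -3.64 and -2.58 (6 arrays) at 0-2 h, a difference of 2.87 ± 0.20 (SE; adjusted p = 5.46e-08). GstT4, a theta-class GST, had -1.75, -0.39 and 0.35 at 4-6.5 h, against -3.53, -2.98 and -2.77 at 0-2 h, a difference of 2.61 ± 0.29.

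Neither of these genes overlapped between the 2 windows, and the same held for Cyp310a1, a P450 of the CYP3 clan. Cyp310a1 had 1.94, 2.42 and 2.69 at 4-6.5 h, against 0.19, 0.49 and 0.74 at 0-2 h (difference 1.89 ± 0.14, adjusted p = 1.06e-07). Cyp4ac1 (1.98 ± 0.45) and Cyp4c3 (1.71 ± 0.34) also rose, with overlapping windows. The genes that fell were Cyp318a1 (-0.85 ± 0.17), Ugt36E1 (-0.84 ± 0.18) and Cyp6g1, a P450 tied to insecticide resistance (-0.31 ± 0.11). These 17 calls numbered 6 without the replicate 2 arrays and 0 in slide set A alone, and there were 17 calls without the arrays that stood apart.

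At 20-24 h, when the larval organs are completed, set against 4-6.5 h, 22 of 34 tested enzyme genes rose and 7 fell, against 35.1% and 34.8% of all probes. The median difference was 0.81 for the enzyme genes and -0.03 for all probes. Among P450s 17 of 24 rose and 4 fell, among GSTs 3 of 5 rose and 1 fell, and among UGTs 2 of 5 rose and 2 fell. GstZ2 had log2 ratios of 1.05, 1.64 and 1.86 (8 arrays) at 20-24 h, against -4.26, -3.36 and 0.35 (8 arrays) at 4-6.5 h, a 19.5-fold difference (log2 4.29 ± 0.44, adjusted p = 2.04e-07). The value of 0.35 came from the array of 4-5 h that stood apart, and without the arrays that stood apart the difference was 4.95.

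Cyp4c3 had 0.88, 1.99 and 2.85 at 20-24 h, against -3.24, -2.28 and -1.03 at 4-6.5 h (4.04 ± 0.27, 4.21 without the arrays that stood apart). Cyp6a20, a P450 known for its effect on aggression between males, had 1.22, 2.38 and 2.82 at 20-24 h, against -2.06, -1.53 and -1.01 at 4-6.5 h (3.79 ± 0.25). These genes did not overlap between windows. Cyp4d8 (3.65 ± 0.53, overlapping) and Cyp6a17, a P450 that affects temperature preference (3.33 ± 0.35), complete the largest increases.

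Cyp310a1 ran the other way, at -1.77, -1.48 and -1.29 in embryos of 20-24 h, against 1.94, 2.42 and 2.69 at 4-6.5 h. That difference of -3.90 ± 0.12 was 14.9-fold, with no overlap (adjusted p = 3e-13). GstZ1, the other zeta-class GST, had -2.0, -1.33 and -0.89 (6 arrays) at 20-24 h, against 0.60, 1.26 and 1.99 at 4-6.5 h (-2.71 ± 0.25). GstZ1 and GstZ2 are neighbours with no gene between them in the reference gene order, and here the first fell while the second rose.

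Cyp6g1 fell by 2.60 ± 0.13 and Ugt316A1 by 2.40 ± 0.14 on the log2 scale, again without overlap, and Cyp4ae1 by 0.97 ± 0.19 with overlap. Within slide sets A and B taken alone, the difference kept its sign in both for 26 of 27 called genes with values in both sets. The exception was Cyp9c1, which had a value of 0.29 on the 4-5 h array that stood apart and -2.08 on the other array of that collection. Of 5 Malpighian tubule markers 4 were higher at 20-24 h and 0 lower (median 1.37), of 2 fat body markers 1 was higher, and of 8 antioxidant and regulator genes 6 were higher and 0 lower (median 0.92). Their part in the result was not tested.

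Larvae of 24-43 h, set against embryos of 20-24 h, had 16 of 32 tested enzyme genes higher and 6 lower, while 49.0% of all probes were called in either direction. The median difference was 0.43 for the enzyme genes and 0.04 for all probes. Cyp6w1, a P450 able to oxidise insecticides, had log2 ratios of 1.44, 1.23, 1.15, 1.49 and 0.73 in the larvae of 24, 33, 33, 43 and 43 h, against a lowest, median and highest of -1.99, -1.24 and -0.42 in the embryos, a difference of 2.53 ± 0.26 (adjusted p = 3.71e-06). Cyp4ac1 had -0.23, 0.13 and 0.99 in larvae, against -1.95, -1.43 and -1.23 in embryos (1.72 ± 0.19). Both lay apart from the embryos in every array.

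GstO2, an omega-class GST, was higher in the larvae by 0.99 ± 0.13 without overlap, and Ugt35B1 (1.32 ± 0.20) and the mitochondrial P450 Cyp12c1 (1.19 ± 0.27) with overlap. Cyp4c3 had 0.21, 0.40 and 0.82 in larvae, against 0.88, 1.99 and 2.85 in embryos (-1.41 ± 0.22, no overlap). Cyp28d1, a P450 linked to nicotine metabolism (-0.97 ± 0.21), Cyp4d8 (-0.91 ± 0.24), Ugt36D1 (-0.69 ± 0.16) and Cyp6a20 (-0.71 ± 0.26) were also lower. The call for Cyp6a20 was lost without any 1 of 7 arrays, including larva 24 h replicate 1 (-0.50).

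Between late and early larvae, 6 of 33 tested enzyme genes were higher and 10 lower, beside 13.9% and 17.2% of all probes, with a median difference of 0.00 (all probes -0.02). Among the 6 GSTs 4 were lower and 0 higher. Cyp6a20 had -1.95, -1.02 and -0.55 in late larvae, against 0.82, 1.58 and 1.79 in early larvae (-2.53 ± 0.24, adjusted p = 1.57e-05). Cyp4p2 had -3.02, -0.48 and 0.52 in late larvae, against 0.76, 1.42 and 1.90 in early larvae (-2.15 ± 0.43). Neither overlapped.

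GstE1, an epsilon-class GST that handles products of lipid peroxidation, had 1.16, 1.35, 0.45, 1.00 and 0.62 in late larvae (84, 84, 96 and 96 h and the last time), against 1.55, 1.62, 2.37, 2.49 and 1.94 in early larvae (24, 24, 33, 33 and 43 h). Its difference of -1.08 ± 0.25 had no overlap. GstT4 (-1.31 ± 0.38) and Cyp6w1 (-1.18 ± 0.39) were lower with overlap. The call for Cyp6w1 was lost without any 1 of 6 arrays, one of them larva 24 h replicate 2 (-1.09). Ugt316A1 had -0.25, -0.04 and 0.54 in late larvae, against -0.98, -0.92 and -0.70 in early larvae (0.92 ± 0.16), and it was the only increase without overlap among the 5 largest.

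The other 4 increases were Cyp4ac1 (1.44 ± 0.39), Cyp310a1 (1.11 ± 0.21), Cyp9b2 (0.90 ± 0.27) and Cyp4d8 (0.81 ± 0.26). Cyp9b2 lost its call without larva 24 h replicate 1 (0.83) or larva 96 h replicate 2 (0.85), and Cyp4d8 without any 1 of 8 arrays, one of them larva 84 h replicate 1 (0.71).

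Among sexed larvae of the last larval time (2 arrays a sex, all in slide set B), 1 of 33 tested enzyme genes was called, beside 3.58% of all probes higher in males and 0.0609% lower. That gene was Ugt305A1, at 1.25 and 1.01 in male larvae, against 0.05 and -1.03 in female larvae (1.62 ± 0.30, adjusted p = 0.00318). The call was lost without female replicate 2 (1.08). The scan comments of replicate 1 of both sexes give 96 h and not the later time of the titles, with the same sex. Leaving out the arrays of disagreeing comments left 1 array a sex, and the difference between those was 2.04. Same-numbered arrays of the sexes shared a slide, and with the replicate number as a block the gene kept its call (adjusted p = 0.00276). Of the male germline markers, 7 of 8 tested were higher in the male larvae, with a median difference of 2.48, and their part in the result was not tested.

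At pupariation more of the enzyme genes fell than rose. At 0-6 h of metamorphosis, 13 of 35 tested were lower than in late larvae and 1 was higher, while 17.7% of all probes were lower and 16.0% higher. The median difference was -0.43 for the enzyme genes and -0.01 for all probes. Without centring of the arrays the split was 7 lower and 5 higher, with an all-probe median of 0.37, and slide set B alone gave 4 calls. The genes that fell comprised 10 of 24 P450s and 3 of 6 GSTs (GstE1, GstT4 and GstZ2), and 0 of 5 UGTs.

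Cyp4ac1 had log2 ratios of -2.75, -2.06 and -1.19 (7 arrays) at 0-6 h of metamorphosis, against -0.18, 1.92 and 2.42 (6 arrays) in the larvae, a 13.5-fold difference (log2 -3.75 ± 0.38, adjusted p = 7.31e-06). Cyp28a5 had -3.01, -2.31 and -1.76 at 0-6 h, against -1.02, 1.68 and 1.82 in the larvae (-3.41 ± 0.41). Cyp4c3 had -3.69, -3.27 and -2.87 at 0-6 h, against -0.12, 0.41, -0.61, -0.08 and -0.89 in the larvae of 84, 84, 96 and 96 h and the last time (-3.07 ± 0.24). In none of the 3 did the groups overlap.

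Cyp9f2 (-3.24 ± 0.60) and Cyp6w1 (-2.29 ± 0.40) also fell, with overlap. The other genes that fell were Cyp6a8 (-1.82), Cyp4g15, a relative of Cyp4g1 known from the nervous system (-1.59), Cyp6a20 (-1.19), Cyp318a1 (-1.07), GstE1 (-0.97), GstT4 (-0.93), Cyp305a1 (-0.76) and GstZ2 (-0.76). Ugt36D1 was the 1 gene that rose, at 0.35, 1.05 and 2.19 in metamorphosis of 0-6 h, against -1.07, -0.02 and 1.01 in the larvae (1.49 ± 0.30, overlapping). Cyt-b5-r fell by 1.93, and it was the 1 measured gene of a list meant for P450 redox partners and ecdysone P450s. Whether it acts as such a partner was not tested. The partners Cpr, Cyt-b5, Fdx1, Fdx2 and dare were not measured. Of the other detoxification enzymes (esterases, sulfotransferases, transporters and glutathione synthesis) 1 of 7 rose and 1 fell.

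Some genes had their highest levels in the first hours after pupariation. Group means were highest at 10 h for Cyp9c1 (3.67 and 3.27 on the 2 arrays), Ugt36D1 (2.87 and 3.01) and Cyp6d4 (2.67 and 2.18). Cyp9c1 had been at -1.40 on the 1 array of 0 h, 2.38 and 2.52 on the arrays of 6 h and 3.28 and 2.31 on those of 8 h, and at 12 h its replicates read -0.86 (the array that stood apart) and 3.02. At 20-48 h Cyp9c1 read 0.04 to 0.63 on replicate 1 arrays and 1.36 to 3.35 on replicate 2 arrays, so whether it came down after 10 h differed between replicates. Cyp6a17 was highest earlier, at 2.55 and 2.63 on the arrays of 6 h, and read 0.10 and -0.10 at 8 h. These values are descriptions and were not tested.

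By 72-96 h of metamorphosis, when adult tissues are nearly finished, 15 of 33 tested enzyme genes were higher than at 0-6 h and 7 lower, beside 22.7% and 21.2% of all probes. The median difference was 0.62 for the enzyme genes and -0.03 for all probes. Cyp4c3 had -1.79, 0.14 and 1.01 (6 arrays) at 72-96 h, against -3.69, -3.27 and -2.87 (7 arrays) at 0-6 h (3.06 ± 0.42, adjusted p = 4.87e-05). Cyp6a20 had -0.99, 0.55 and 2.62 at 72-96 h, against -3.04, -2.43 and -1.17 at 0-6 h (2.97 ± 0.52). Neither overlapped, nor did Cyp305a1 (2.00 ± 0.28) or Cyp4g15 (1.65 ± 0.24), whereas Cyp9f2 (2.76 ± 0.47) did.

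Cyp310a1 was lower, with -1.22, -0.73 and -0.58 at 72-96 h, against 0.31, 0.76 and 1.04 at 0-6 h (-1.54 ± 0.17, no overlap). Cyp6a17 (-1.34 ± 0.39), Cyp12c1 (-1.26 ± 0.39), Ugt316A1 (-1.19 ± 0.31) and Cyp6d4 (-1.18 ± 0.25) were lower with overlap. Cyp6a17 lost its call without metamorphosis 6 h replicate 1 (-1.0), and Cyp12c1 without that array (-1.04) or metamorphosis 72 h replicate 2 (-1.08).

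Adults of 0-24 h differed from 72-96 h of metamorphosis in 3 of 34 tested enzyme genes, all higher, beside 3.60% of all probes higher and 4.31% lower. Cyp28a5 had -0.13, 0.43, 0.42 and 0.57 in the adults, against -1.40, -1.12 and -0.30 (lowest, median and highest of 6 arrays) in the pupae (1.36 ± 0.25, no overlap). GstO2 had 0.89, 0.97, 0.58 and 1.53 in adults, against -2.32, 0.35, -2.63, 0.89 and -0.23 in pupae, where the 2 arrays of 72 h and the 2 of 80 h read far apart (1.96 ± 0.47). Cyp4ac1 was higher by 1.22 ± 0.23, with overlap. The count was 1 without the first 0-24 h female array and 0 without the first 0-24 h male array or the first array of 72 h or of 80 h, and it was 25 in slide set A alone and 0 in slide set B alone.

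Adult males and females differed widely. Of 33 tested enzyme genes 23 were higher in males and 6 lower, beside 39.9% and 34.1% of all probes, and the median difference was 0.81 for the enzyme genes and 0.07 for all probes. Of 23 P450s 18 were higher in males and 2 lower. Cyp4d21 had log2 ratios of 2.64, 3.50 and 4.57 (lowest, median and highest of 16 arrays) in males, against -1.39, -0.38 and 0.87 (16 arrays) in females, a 14.0-fold difference (log2 3.81 ± 0.16, adjusted p = 5.22e-19). Ugt305A1 had 0.24, 1.34 and 2.47 in males, against -2.98, -1.77 and -1.04 in females (3.17 ± 0.20).

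GstZ2 had -0.17, 0.77 and 1.93 in males, against -3.05, -2.34 and -1.02 in females (3.03 ± 0.13). Ugt35B1 had 1.73, 2.84 and 4.35 in males, against -1.61, 0.16 and 1.71 in females (2.81 ± 0.16). No male array of these 4 genes reached down to a female one. Cyp4ac1 (1.62 ± 0.16) had overlapping sexes.

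Fewer enzyme genes were higher in females. GstZ1 had -3.12, -0.62 and -0.08 (14 arrays) in males, against -1.35, 0.76 and 1.66 (16 arrays) in females (-1.48 ± 0.22, overlapping), so the 2 zeta-class genes again ran opposite ways. Ugt316A1 (-0.97 ± 0.13), Cyp6g1 (-0.74 ± 0.12), Ugt36E1 (-0.71 ± 0.12), GstO2 (-0.35 ± 0.14) and Cyp318a1 (-0.32) were lower in males with overlap, and GstO2 lost its call without replicate 1 arrays (-0.15). Within each slide set the sign was kept for 28 of 29 called genes, with Cyp12c1 the exception. Beside these values, 8 of 8 male germline markers were higher in males (median 4.38), 3 of 5 female germline markers were lower in males (mtrm -4.10, swa -2.63 and orb -0.92) and 1 was higher (exu 0.52), and Acp36DE, a seminal protein of the male accessory gland, was higher by 8.07. Of 5 Malpighian tubule markers 4 were higher in males and 1 lower (median 0.73), of 9 other detoxification genes 5 were higher and 3 lower (median 0.55), and 1 of 2 fat body markers was higher. Their part in the result was not tested.

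Age moved few of the enzyme genes. Slopes over 30 d passed the test for 5 of 33 genes in females (8.70% of all probes) and 3 of 33 in males (10.8%), and the slopes differed between the sexes for 2 (1.37%). Ugt35B1 had -1.61, -1.13 and -0.83 (lowest, median and highest of 4 arrays) in females of 25-30 d, against 0.57 and 1.59 in females of 0-24 h. Its slope was -0.56 ± 0.11 per 10 d in females (adjusted p = 0.00102), and the slope in males minus that in females was 0.54 ± 0.14 (adjusted p = 0.0413).

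Among the other female slopes Cyp6a20 (-0.47 ± 0.09) and GstZ2 (-0.41 ± 0.11) fell and Cyp4ac1 (0.39 ± 0.13) and Ugt36E1 (0.26 ± 0.08) rose. Wild-type adult arrays of 20 d and later were all in slide set B, so age and slide set are partly confounded. Without the slide set term the slope of Cyp4ac1 was 0.08 (limma, adjusted p = 0.792). Ugt36E1 lost its call with its probes averaged. In males Cyp305a1 (-0.34 ± 0.08), GstZ2 (-0.34 ± 0.11) and Cyp4g15 (-0.26 ± 0.07) fell, and Cyp4g15 also differed between the sexes (-0.43 ± 0.10, males minus females). None of the female slopes passed with either replicate set left out, and in males 1 passed without replicate 1 and 0 without replicate 2.

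In tudor females more of the enzyme genes rose than fell. Of 33 tested, 14 were higher than in wild-type females and 1 was lower, beside 24.3% and 13.7% of all probes. The median difference was 0.69 for the enzyme genes and 0.18 for all probes, a shift of all probes that was 0.02 without centring. Of 12 tested genes of the CYP3 clan 7 were higher, as were 3 of 9 of the CYP4 clan, 2 of 4 GSTs and 1 of 5 UGTs.

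Cyp9c1 had -0.11 and 0.19 at 0-24 h and 0.52 and -0.23 at 5 d in tudor females, against -2.59 and -2.19 at 0-24 h and -2.22 and -3.86 at 5 d in wild-type females (2.54 ± 0.38, adjusted p = 9.42e-06). Cyp4d8 had 1.90, 2.02, 2.16 and 1.90 in tudor females, against -0.32, 0.23, 0.47 and -0.81 in wild-type females (2.42 ± 0.26). Cyp4g15 had 2.56, 0.85, 2.19 and 2.12 in tudor females, against -0.76, -0.08, -0.32 and -0.69 in wild-type females (2.38 ± 0.26). In all 3 genes every tudor female array lay above every wild-type female array of these ages. All tudor arrays were in slide set B, whereas the first wild-type array of each sex at these ages was in set A. Comparisons of single arrays with wild type therefore also cross slide sets, and the sign could not be checked within each set.

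Cyp28a5 had 1.02, 1.54 and 1.30 (3 arrays with a value) in tudor females, against -0.13, 0.43, -1.14 and -2.15 in wild-type females (2.45 ± 0.41). Cyp28d1 had 0.76, 1.80 and 1.16 (3 arrays) in tudor females, against -0.49, -0.16, 0.13 and -0.99 in wild-type females (1.88 ± 0.33). With tudor flies of 0-24 h alone, neither Cyp28a5 (1.15, adjusted p = 0.127) nor Cyp28d1 (1.39, adjusted p = 0.0624) passed. Cyp6g1 was the 1 gene that fell, with -1.91, -1.98, -1.81 and -1.38 in tudor females, against -0.77, -0.60, -1.48 and -0.54 in wild-type females (-1.12 ± 0.22).

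Tudor males had 0 of 33 tested enzyme genes higher than wild-type males and 4 lower, beside 10.5% and 12.3% of all probes, and 1 gene was higher without the arrays of disagreeing scan comments. Ugt305A1 had -1.5, -1.68, -1.24 and -1.23 in tudor males, against 1.76, 1.38, 1.11 and 2.35 in wild-type males, an 8.07-fold difference (log2 -3.01 ± 0.38, adjusted p = 4.36e-07). GstZ2 had 0.54, 0.26, -0.21 and -0.14 in tudor males, against 1.05, 1.93, 0.40 and 1.04 in wild-type males (-1.23 ± 0.27). The first gene's groups lay apart and those of the second overlapped, with the tudor arrays again all in slide set B.

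Cyp310a1 had -0.67, -0.85, -1.27 and -1.34 in tudor males, against -0.67, -0.31, -0.10 and 0.52 in wild-type males (-1.07 ± 0.28). At 0-24 h alone it did not pass (-0.45, adjusted p = 0.401). Cyp6g1 had -2.30, -1.95, -1.74 and -1.84 in tudor males, against -1.38, -1.48, -1.29 and -1.35 in wild-type males (-0.78 ± 0.22), so it fell in tudor flies of both sexes, in fits that share 1 estimate of spread. In slide set B alone the value in males was -0.55 (adjusted p = 0.0969). The call in males was also lost without the slide set term (-0.59), with tudor flies of 5 d alone, and with adult arrays of 0-24 h and 5 d alone.

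**Figure D3:**
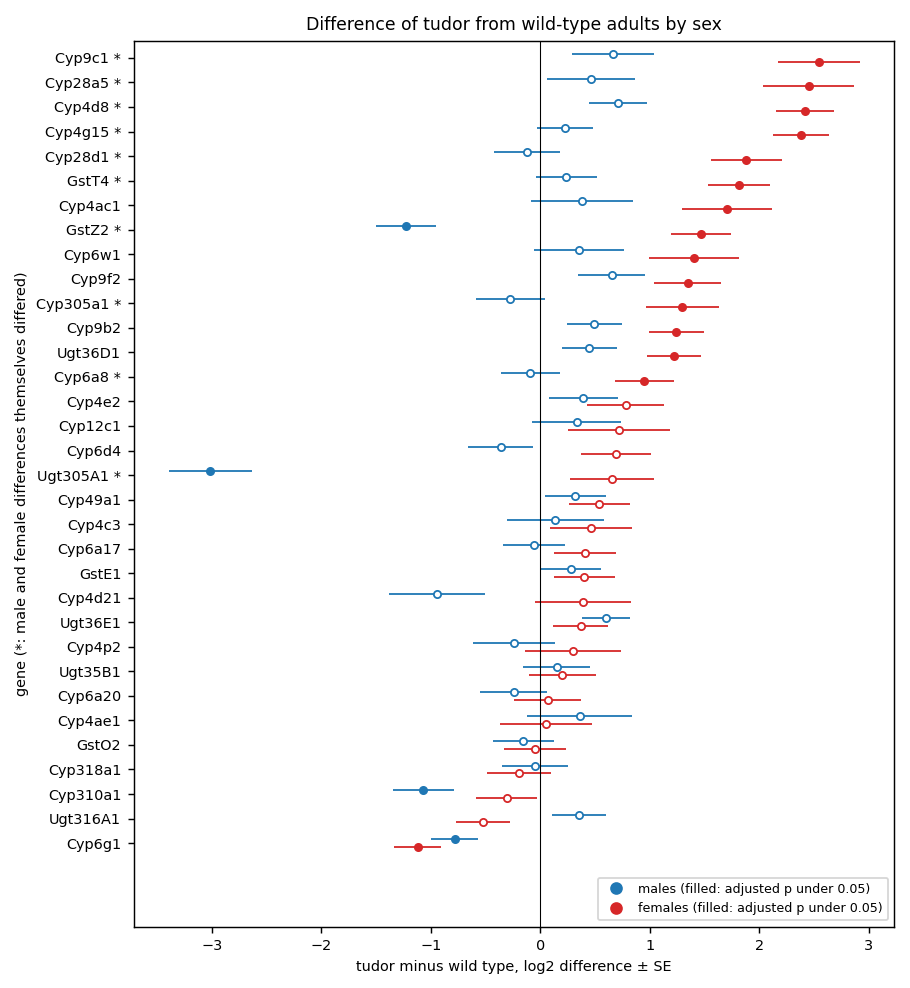
Log2 difference ± SE between tudor and wild-type flies for each tested enzyme gene, in males and in females, with filled points where adjusted p was under 0.05 and an asterisk where the effects of the 2 sexes differed. The females' points of Cyp9c1, Cyp28a5, Cyp4d8 and Cyp4g15 lie between 2.38 and 2.54, and the lowest point is Ugt305A1 in males at -3.01.

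The tudor effect itself differed between the sexes for 10 of 33 genes, all lower in males, beside 13.8% of all probes lower and 7.91% higher. The largest were Ugt305A1 (-3.67 ± 0.52, males minus females), GstZ2 (-2.69 ± 0.37), Cyp4g15 (-2.16 ± 0.35), Cyp28d1 (-2.01 ± 0.43) and Cyp28a5 (-1.99 ± 0.56). With tudor flies of 0-24 h alone, Cyp28d1 and Cyp28a5 lost this call. Cyp28a5 also lost it in slide set B alone and with adult arrays of 0-24 h and 5 d alone. GstZ2 was called in both sexes with opposite sign, lower in tudor males (-1.23) and higher in tudor females (1.46 ± 0.27). Its call in males was lost with tudor flies of 5 d alone.

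Male tudor flies differed from female tudor flies in 2 genes that were higher and 4 that were lower, of 33, beside 2.75% and 8.17% of all probes. Cyp4d21 had 2.65, 1.30, 3.05 and 2.76 in tudor males, against -1.79, -1.24, 1.10 and 0.69 in tudor females (2.75 ± 0.42). Ugt35B1 had 2.44, 2.70, 2.17 and 3.29 in tudor males, against -0.55, 0.78, 1.10 and 0.84 in tudor females (2.11 ± 0.29). Both kept the higher level in males that wild-type adults had, without overlap.

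For Ugt305A1 the difference between tudor males and tudor females was -0.06 ± 0.36, and for GstZ2 0.19 ± 0.26, neither of which passed the test. In wild-type adults of all ages the differences between males and females were 3.17 and 3.03, in fits that share the wild-type arrays. The tudor flies were of 0-24 h and 5 d only, so the ages behind these values differ. GstT4 (-1.07 ± 0.27), Cyp4d8 (-1.01 ± 0.25), Cyp4g15 (-0.99 ± 0.25) and Cyp9b2 (-0.75 ± 0.24) were lower in tudor males. Those 4 calls were lost under quantile normalization, and each was lost on leaving out at least 1 array: GstT4 without the second 5 d female array (-0.90), Cyp4d8 without the first 5 d male array (-0.82), Cyp4g15 without the first 0-24 h female array (-0.70) and Cyp9b2 without any 1 of 6 arrays.

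**Figure D4:**
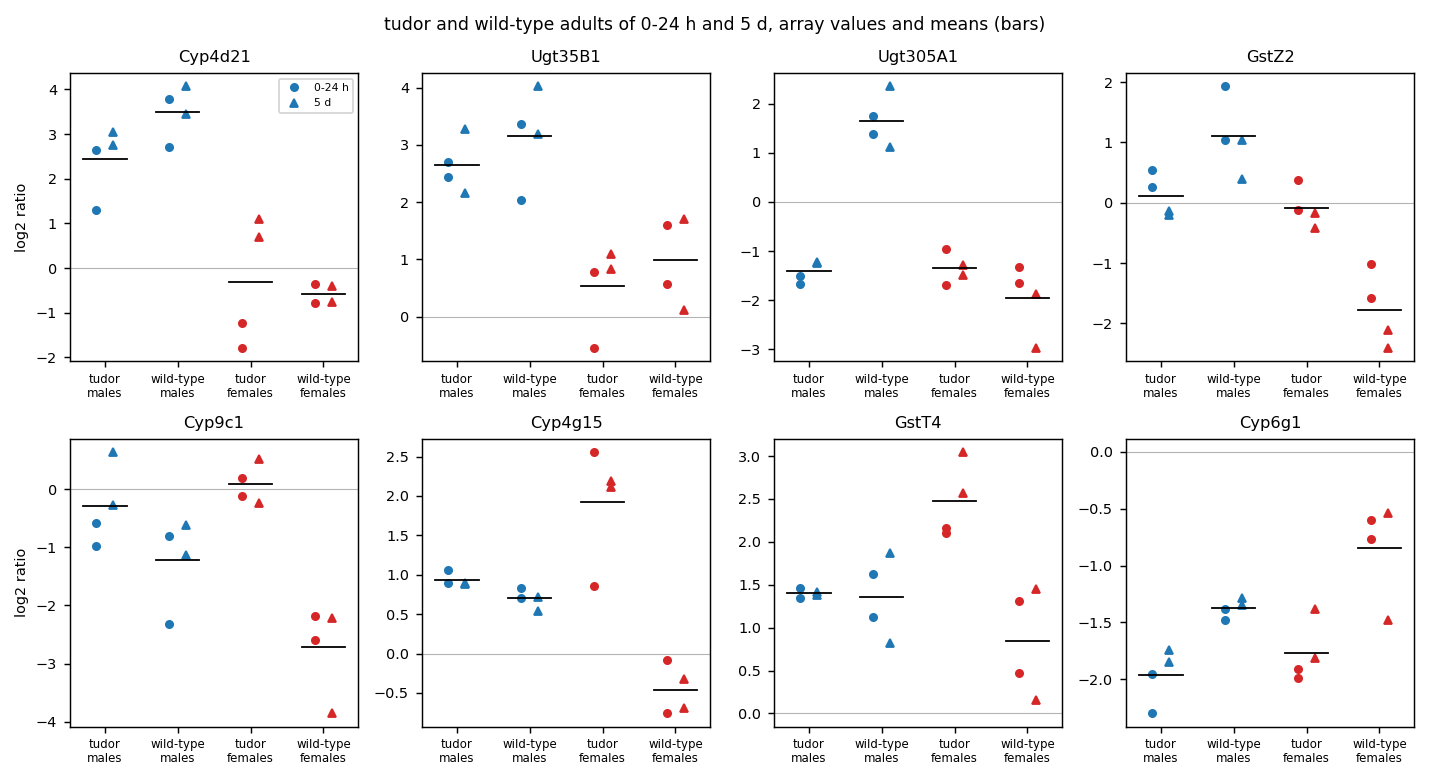
Log2 ratio over reference on each array for 8 enzyme genes in tudor males, wild-type males, tudor females and wild-type females at 0-24 h (circles) and 5 d (triangles), with a bar at the mean. Ugt305A1 lies between -1.68 and -1.23 in tudor males and between 1.11 and 2.35 in wild-type males, while Cyp4d21 and Ugt35B1 stay higher in males than in females in both kinds of flies.

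Germline markers also differed between tudor and wild-type flies. In tudor males 8 of 8 male germline markers were lower than in wild-type males (median -3.91), and the mean over the 4 such markers with a value on every array was -1.37 to -0.66 in tudor males and 2.82 to 3.46 in wild-type males. That mean was -1.5 to -0.66 in tudor females and -2.58 to -1.08 in wild-type females, where 4 of 8 of the markers were higher in tudor. For female germline markers, 3 of 5 were lower in tudor females (exu -4.36, swa -3.95 and mtrm -3.74) and 2 of 5 in tudor males (exu -6.03 and swa -1.62). The median difference over the 5 markers was -3.74 in tudor females and 0.05 in tudor males. The mean over the 3 of these with a value on every array was -2.51 to -1.42 in tudor females and 0.10 to 1.24 in wild-type females, and -2.66 to -1.79 in tudor males and -0.33 to 0.62 in wild-type males. Their part in the results on the enzyme genes was not tested.

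Among genes beside the members, Cyt-b5-r was higher in tudor females by 2.95. Of the 9 other detoxification genes 6 were higher there and 0 lower. Among the 6 were alpha-Est2 (2.30), Men (1.63) and Mdr49 (1.33), which had the lowest adjusted p-values. In tudor males 3 of those 9 were higher and 1 lower. Fat body markers were higher in tudor females in 2 of 2 tested cases and Malpighian tubule markers in 4 of 5, and in tudor males in 0 of 2 and 1 of 5. The antioxidant and regulator list had 1 of 8 higher in tudor females and 0 in tudor males. The accessory gland gene Acp36DE did not pass in tudor males (0.20).

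Genes that lie near each other did not share 1 pattern. Ugt36D1 and Ugt36E1, with no gene between them, had group means that correlated at -0.70 over 75 wild-type groups, and GstZ1 and GstZ2 at -0.33 over 74. In the Cyp6a cluster, Cyp6a20 correlated at 0.51 with Cyp6a8 (1 gene between them) and at 0.58 with Cyp6a17 (3 genes between them). The median over 740 pairs of members was 0.21, with a range of -0.81 (Cyp6g1 and GstZ2) to 0.89 (Cyp28a5 and Cyp9f2). These correlations are descriptions over groups that share the reference RNA and, in part, the slide set.

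Among members not yet described, Cyp4e2 was highest in adult males of 10 d (mean 1.94) and Cyp49a1, the other mitochondrial P450, in embryos of 16-17 h (1.36). GstE12 was highest in larvae of 33 h (2.58) and Cyp6a13 in larvae of 67 h (1.08), among the few groups where it had 2 values. Cyp4d2 and Cyp6d5 had 2 values in 1 group each, adult males of 3 d (0.61) and metamorphosis 12 h (-0.54), so no course can be given for them. The cyclophilin Cyp1 was lower in embryos of 4-6.5 h than at 0-2 h (-2.60 ± 0.20), in adult males than in females (-2.09 ± 0.13) and in tudor females than in wild-type females (-1.37 ± 0.28).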

How the data were processed

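Per the labels, RNA was poly(A)+ selected, hybridised against a reference RNA on 2-colour cDNA arrays and read on a GenePix scanner. The authors deposited 1 value for each of 12588 probes and 159 arrays. Their unit was read from the values as log2 ratios. How the authors corrected, filtered, centred and normalized the deposited log2 ratios is not given in the sources used here. Sample over reference is stated by the scan comments of 13 arrays and was taken as likely for the rest.

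Probes were named from the platform annotation (4137 with 1 gene name, 159 with several, 8292 with none), updated through a table of the Release 6 gene set that held 4089 of the 4137. A second probe existed for 17 members. Titles gave groups and slide sets, also for the 6 arrays whose scan comment disagrees. Log2 values above 16, the upper limit, were set missing (252 values), and each array was centred on its median.

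Tests used limma (version 3.58.1, R 4.3.3) with the slide set as a term, two-sided, on probes with values on at least 80% of the arrays of a fit, with Benjamini-Hochberg adjustment over all of them and a threshold of 0.05. Windows were compared on their own arrays, adult sexes and age slopes on the 32 wild-type adult arrays, sexed larvae on the 24 larval arrays, and tudor on all 40 adult arrays with an effect for each sex. The number of arrays limits the precision. The script was tested on simulated data.

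Values are printed for up to 5 increases and 5 decreases a comparison, for genes assigned to a stage, and for marker lists by count with up to 3 genes. Members not so chosen are named with their highest group. The members, gene lists and tests were chosen with earlier results of these data known. Alternatives covered centring, quantile normalization, missing values, the slide set, replicate numbers or slides as blocks, averaged probes, and arrays left out. By the median correlation, same-numbered arrays did not deviate together, except for sexed larvae, where both pairs shared a slide (correlation 0.74). For adult sexes 9 of 16 same-numbered pairs also shared a slide, and the median correlation was -0.05. The tests were not paired.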

Additional observations from a re-analysis of the deposited data

Results flagged for a closer look

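The tudor effect differed between males and females for 10 enzyme genes and 1 cyclophilin gene, by a direct test of the difference (limma, Benjamini-Hochberg). Given as the effect in males minus that in females on the log2 scale, it was -3.67 for Ugt305A1, -2.69 for GstZ2, -2.16 for Cyp4g15, -2.01 for Cyp28d1, -1.99 for Cyp28a5, -1.88 for Cyp9c1, -1.71 for Cyp4d8, -1.58 for GstT4, -1.57 for Cyp305a1 and -1.04 for Cyp6a8. For 8 of these, Cyp4g15, Cyp28d1, Cyp28a5, Cyp9c1, Cyp4d8, GstT4, Cyp305a1 and Cyp6a8, the effect passed the test in females (0.95 to 2.54) and not in males (-0.27 to 0.71). Ugt305A1 passed in males (-3.01) and not in females (0.65), and GstZ2 in both with opposite signs. The difference for Cyp28a5 and for Cyp28d1 did not pass with tudor flies of 0-24 h alone. The effect for GstZ2 in males did not pass with those of 5 d alone. For the cyclophilin Cyp1 the difference was 1.67, with an effect of 0.30 in males, which did not pass, and of -1.37 in females, which did.

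The age slope differed between the sexes for Ugt35B1 (0.54 per 10 d, males minus females) and Cyp4g15 (-0.43). Ugt35B1 had slopes of -0.02 in males and -0.56 in females, and Cyp4g15 of -0.26 in males and 0.17 in females. Both calls were lost with the replicate 1 or the replicate 2 arrays left out.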

How the results depend on the processing

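Of 2047 alternative values of named genes, 1853 kept their direction and side of the threshold, 193 kept their direction only and 1 reversed, the female age slope of GstZ2 in slide set A alone (0.23). Counted by result, 43 of 99 named results passed the test in every alternative. All 43 were among the 89 results other than age slopes. Of 335 alternative counts, 56 moved by more than 1.5 times. The cause of these moves was not tested, except that filters and single sets test fewer genes or arrays. With a value required on every array, calls numbered 17 in embryos of 20-24 h over 4-6.5 h, 13 in metamorphosis 72-96 h over 0-6 h, 1 for stages, 0 for larval sexes, 14 for adult sexes, 3 for age slopes in females, 9 for tudor females and 6 for the sexes' difference in tudor effect. Slide set A alone gave 0 in embryos of 4-6.5 h over 0-2 h, 16 in embryos of 20-24 h, 9 in larvae of 24-43 h, 2 in late larvae, 25 in adults of 0-24 h over pupae and 0 for each age result. Slide set B alone gave 4 in metamorphosis 0-6 h, 14 in 72-96 h, 0 in adults of 0-24 h, 5 for stages, 0 for larval sexes, 2 for age in females and 0 for the age difference.

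The age results were the least stable: in females 2 with quantile normalization, 3 without arrays of disagreeing labels and 2 without flies of 0-24 h; in males 1 without centring, 1 with quantile normalization and 1 without flies of 0-24 h; and for the difference of slopes 0 without centring, 0 without the slide set term, and 1 each with the looser missing-value filter, on log2 of age and without flies of 0-24 h. Stage assignments numbered 0 at a minimum difference of 2 and 20 with no minimum. One fit to all arrays gave 14 in larvae of 24-43 h and 6 in adults of 0-24 h, and quantile normalization 2 between tudor sexes. Tudor flies of 0-24 h alone gave 9 in females, 3 for the sexes' difference and 2 between tudor sexes, and those of 5 d alone 2 in males. With arrays left out, ranges were 6 to 20 in embryos of 4-6.5 h, 0 to 4 in adults of 0-24 h, 0 to 1 for larval sexes, 0 to 0 for age in females and for the age difference, and 0 to 1 for age in males.

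Higher and lower calls split 12 and 5 in embryos of 4-6.5 h, 4 and 11 in late larvae, 1 and 3 for age in females and 1 and 0 for age in males without centring. With quantile normalization they split 8 and 5 in embryos of 4-6.5 h, 3 and 1 in adults of 0-24 h, 0 and 2 for age in females, 2 and 1 for the age difference, 1 and 4 in tudor males and 2 and 0 between tudor sexes. Removing centring moved the all-probe median to -0.26 in embryos of 20-24 h, 0.02 in embryos of 4-6.5 h, -0.17 in late larvae, -0.10 in larvae of 24-43 h, -0.14 in metamorphosis 72-96 h and -0.16 for adult sexes. With the replicate number as a block (replicate block), tudor males gave 7 calls, 2 higher and 5 lower. Same-numbered arrays had a median correlation of deviations of -0.05 for adult sexes. No stage fit could be made without replicate 1 or 2, and none in slide set A alone for stages, larval sexes or tudor. Signal over background is not used here, so what dim probes limit is unknown beyond the missing values.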
